A study of Mus musculus with 4 samples.

Results

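Cholesterol synthesis, the transcription factor that drives it and the proteins that sense and move sterols were followed as 27 genes of the mouse liver transcriptome. The 27 were chosen by name as the pathway's enzymes, its SREBP2 regulators and sterol handling genes, out of 54149 genes listed. All 27 were found, and all 27 had a mean of at least 1 FPKM (fragments scaled by listed gene length and library depth). All 27 were therefore tested among 11900 genes. The listed length can exceed that of a transcript, as for Fdps, at 4208 bases against 1382 for its longest coding transcript. Levels of different genes are therefore not strictly comparable. Liver RNA came from adult females on a mixed background, C57BL/6 x 129S4/SvJae. The 2 wild-type (WT) and 2 liver-specific Utx knockout (Utx KO) libraries were each a pool of RNA from the livers of 2 mice. Mice of both genotypes had been fasted for 16 h and then injected into the peritoneum with acetaminophen (APAP) at 300 mg/kg, a dose that injures hepatocytes, so no untreated value is given here. Utx, listed as Kdm6a, encodes a demethylase of lysine 27 on histone H3. Neither the Cre driver nor the time from dosing to collection is stated in the labels.

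Hepatocytes build cholesterol from acetyl-CoA through mevalonate, isoprenoid diphosphates, squalene and lanosterol. SREBP2, the product of Srebf2, is a membrane-bound transcription factor held in the endoplasmic reticulum by the sterol-sensing escort SCAP and the INSIG anchor proteins. When membrane sterol falls, SCAP carries SREBP2 to the Golgi apparatus, where it is cut, and the freed part enters the nucleus and raises transcription of nearly every enzyme of the route. Fasting lowers this program in the liver. Cholesterol that arrives in lysosomes is released by NPC2 and NPC1, and part of the hepatic supply is turned into bile acids.

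Promoters of the enzymes carry short shared elements, and 4 are shown here, picked with the levels known: 3 enzymes and the anchor gene Insig1, all highest in knockout replicate 2 and lowest in wild-type replicate 2. RefSeq windows on GRCm38.p6, from 250 bases before to 50 after each annotated start, were matched to 22 of the 27 genes, in 28 windows. Fdft1, Fdps, Npc1, Sqle and Stard4 had no matched window. The stretches below are the 250 bases before the start, and capitals mark a sterol regulatory element (TCACNCCAC), a CCAAT box (CCAAT, or its complement ATTGG) or an E-box (CACGTG), searched on both strands.
Hmgcs1 (chr13:119690101-119690350, plus strand): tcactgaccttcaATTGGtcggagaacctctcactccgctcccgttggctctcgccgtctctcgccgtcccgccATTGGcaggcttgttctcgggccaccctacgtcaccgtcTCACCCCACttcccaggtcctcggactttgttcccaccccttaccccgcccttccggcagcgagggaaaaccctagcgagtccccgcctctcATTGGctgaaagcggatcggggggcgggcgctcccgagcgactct
Mvk (chr5:114444019-114444268, plus strand): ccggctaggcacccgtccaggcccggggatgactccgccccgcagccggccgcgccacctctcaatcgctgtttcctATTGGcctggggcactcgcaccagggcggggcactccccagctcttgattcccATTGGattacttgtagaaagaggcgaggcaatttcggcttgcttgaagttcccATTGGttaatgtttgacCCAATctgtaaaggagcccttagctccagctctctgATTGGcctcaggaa
Idi1 (chr13:8885356-8885605, plus strand): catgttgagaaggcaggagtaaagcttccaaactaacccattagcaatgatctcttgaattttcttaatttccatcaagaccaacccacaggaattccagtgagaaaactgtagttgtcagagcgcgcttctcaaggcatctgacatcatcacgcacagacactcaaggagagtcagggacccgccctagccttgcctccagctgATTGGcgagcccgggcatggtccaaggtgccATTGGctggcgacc
Insig1 (chr5:28071162-28071411, plus strand): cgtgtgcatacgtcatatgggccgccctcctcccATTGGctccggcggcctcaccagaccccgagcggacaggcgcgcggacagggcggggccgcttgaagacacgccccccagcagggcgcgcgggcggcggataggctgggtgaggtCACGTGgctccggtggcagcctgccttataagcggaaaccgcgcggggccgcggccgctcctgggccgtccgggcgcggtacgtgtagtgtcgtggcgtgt
Hmgcs1 held the sterol regulatory element, beginning 137 bases before the start, and 3 CCAAT boxes. Mvk held 5 CCAAT boxes in this stretch, Idi1 held 2, and Insig1 held 1 with an E-box beginning 101 bases before the start. The matches did not overlap one another in these 4 stretches.

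Over all matched windows, the CCAAT box was in 20 of 28 windows of the pathway, against 37.4% of all 32851 windows of the same length. The element TCACNCCAC was in 1 of 28, against 1.24% of all windows, and the E-box in 6 of 28, against 7.15%. Of the 22 matched genes, Acat2 and Scap held no CCAAT box. These are matches of letters, with no test, and say nothing of which factors were bound.

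The libraries held between 16330451 and 17804730 reads, recovered from the deposited values, and these genes were covered by 97 to 7163 reads in a library. Kdm6a was measured at 3.40 and 3.85 FPKM in wild-type and at 2.20 and 2.12 in knockout pools (limma adjusted p = 0.0715), lower but not past the threshold of 0.05. The 8 hepatocyte markers, among them the albumin gene, summed to 31733 and 39070 FPKM in wild-type and 38754 and 29261 in knockout pools. The 12 neutrophil markers summed to 118 and 181 FPKM in wild-type and 39.8 and 36.1 in knockout pools, with 3 of 8 tested lower. The 5 cholangiocyte markers summed to 263 and 102 against 38.8 and 17.5, with 1 of 3 tested lower. At the same limma adjusted p under 0.05, 3.14% of all genes tested were lower. No marker was at 0 in all libraries, although Ly6g, Mpo, Elane, Camp, Krt7, Krt19 and Col1a1 averaged under 1 FPKM. Sinusoidal endothelial markers summed to 64.7 and 66.1 FPKM in wild-type and 46.3 and 48.1 in knockout pools, and 0 of 6 passed. Macrophage sums were 227 and 161 against 135 and 230, and stellate sums 40.6 and 46.2 against 43.4 and 37.1. Mitochondrial ribosomal RNA took 0.244% and 0.251% of wild-type reads and 0.108% and 0.158% of knockout reads. The neutrophil, cholangiocyte, endothelial and mitochondrial values did not overlap between genotypes, while the hepatocyte, macrophage and stellate sums did. A gap of this kind is common with 2 pools per group. Over all genes tested, both knockout pools lay below both wild-type pools in 29.9% and above them in 31.6%. The part of any of these values in the results below was not tested. In bulk liver, fewer cells of a type and less RNA per cell cannot be told apart.

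Knockout against wild-type asks what hepatic Utx contributes to these transcripts under acetaminophen. Of the 27 genes, 1 rose, the farnesyl diphosphate synthase Fdps, and 1 fell, the lysosomal cholesterol exporter Npc1, at a limma adjusted p under 0.05. Over all genes tested 1.60% rose (190 genes) and 3.14% fell (374 genes) by the same rule, or 211 and 255 with libraries scaled to their listed reads, so the count for the pathway is close to the background. The 19 synthesis enzymes nevertheless leaned one way: 18 had a log2 fold change above 0, with a median of 0.65, against a median of 0.01 over all genes tested. The 27 genes as a whole had a median of 0.44, which ran from 0.26 without knockout replicate 2 to 0.62 without wild-type replicate 1. By limma 11 of the 27 had an unadjusted p under 0.05, against 27.1% of all genes tested (3226 of 11900). In 12 of the 19 enzymes both knockout pools lay above both wild-type pools, where 31.6% of all genes did so. In 1 of the 19, Ggps1, both knockout pools lay below, where 29.9% of all genes did so. Each group had 2 pools, and a p-value here measures only the spread between pools.

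**Figure D1:**
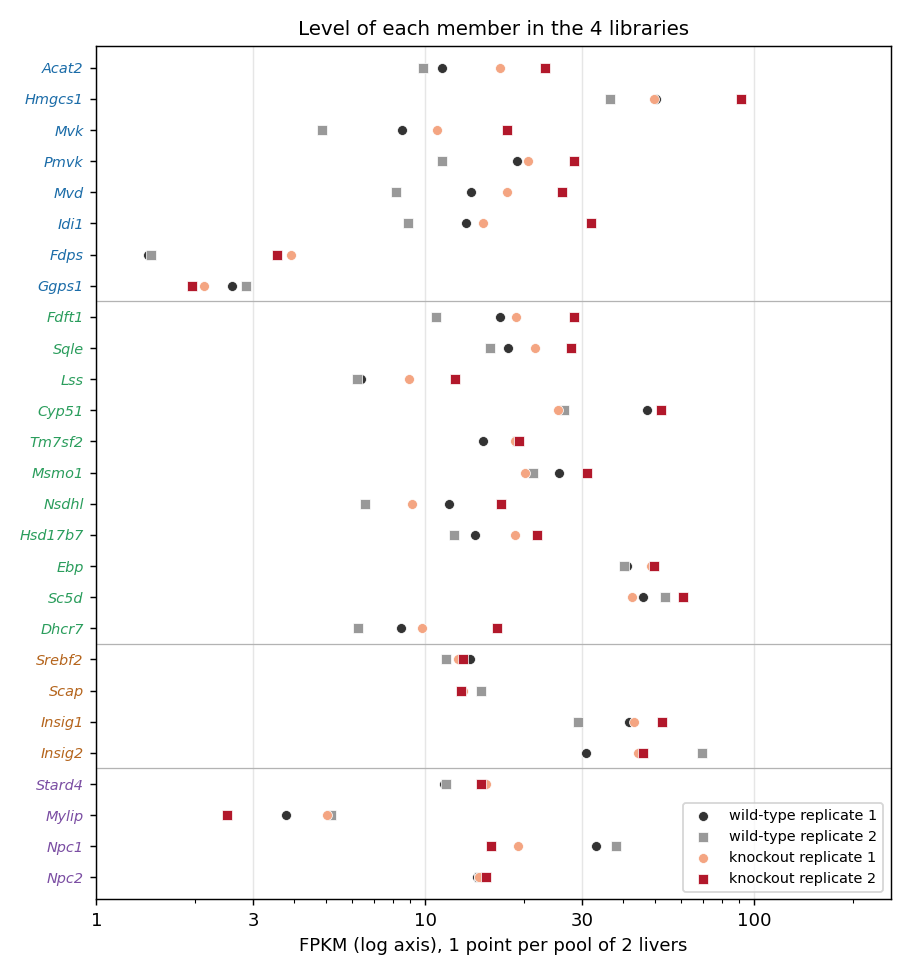
FPKM of the 27 genes (log axis), 1 point per library of 2 pooled livers, grouped by role from the mevalonate steps (top) to sterol transport (bottom). Knockout replicate 2 (red squares) was the highest point for 17 of the 19 enzymes, and only Fdps and Npc1 passed the limma test.

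The first steps join acetyl-CoA units and carry them to mevalonate. Acat2, the cytosolic acetoacetyl-CoA thiolase, was measured at 11.2 and 9.82 FPKM in wild-type replicates 1 and 2 and at 16.9 and 23.1 in knockout replicates 1 and 2. The groups did not overlap, and the log2 fold change was 0.88 (SE 0.18, 95% interval 0.39 to 1.37, limma adjusted p = 0.0705). Its transcript shares 1477 aligned bases at 97.7% identity with Acat3, a thiolase gene at 22.3 and 21.3 FPKM in wild-type and 23.3 and 25.5 in knockout pools. It also shares 445 aligned bases with Tcp1. With reads of Acat2 and Acat3 summed, the difference was 0.46 on the log2 scale (limma adjusted p = 0.126). Acat3 itself had a log2 fold change of 0.16, so the sum lies between the 2 genes by construction. How reads were divided between them is not stated.

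Hmgcs1, the cytosolic HMG-CoA synthase, had the highest single FPKM value among the enzymes. It was at 50.3 and 36.4 FPKM in wild-type and 49.8 and 90.95 in knockout pools. Knockout replicate 1 lay inside the wild-type range and knockout replicate 2 lay far above it. The log2 fold change was 0.65 with a 95% interval from -0.25 to 1.54, and was 0.22 without knockout replicate 2 and 1.08 without knockout replicate 1.

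A pair of kinases and a decarboxylase turn mevalonate into isopentenyl diphosphate, and 0 of these 3 passed the limma test, with 2 at an unadjusted p under 0.05. Mvk, mevalonate kinase, was at 8.49 and 4.85 FPKM in wild-type and 10.8 and 17.8 in knockout pools (log2 fold change 1.05, interval 0.13 to 1.97, limma adjusted p = 0.147). Pmvk, phosphomevalonate kinase, was at 18.99 and 11.2 against 20.6 and 28.4 FPKM (log2 fold change 0.71, interval -0.085 to 1.496, limma adjusted p = 0.217). Mvd, the diphosphomevalonate decarboxylase, was at 13.7 and 8.14 against 17.7 and 26.1 FPKM (log2 fold change 0.99, interval 0.16 to 1.82, limma adjusted p = 0.138). In all 3 genes the pools took the same order, with wild-type replicate 2 lowest, then wild-type replicate 1, knockout replicate 1 and knockout replicate 2. Idi1, the isopentenyl diphosphate isomerase, kept that order, at 13.3 and 8.89 FPKM in wild-type and 15.0 and 31.8 in knockout pools. Its log2 fold change was 0.98 with an SE of 0.41, and it was 0.96 with the reads of 3 similar pseudogenes added.

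Fdps, which condenses isoprenoid units to farnesyl diphosphate, was the enzyme that rose. It was listed at 1.43 and 1.47 FPKM in wild-type and at 3.89 and 3.55 in knockout pools, from 102, 97, 292 and 256 reads. The means were 1.45 ± 0.0229 and 3.72 ± 0.243 FPKM (SD, n = 2 pools), a 2.57-fold difference, and pools of a genotype nearly coincided. On the log2 scale the difference was 1.11 (SE 0.14, interval 0.75 to 1.47, limma adjusted p = 0.0350). The gene lies on GRCm38 chromosome 3 (89093588 to 89101959, minus strand) and is listed with identifier ENSMUSG00000059743.

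Fdps has near-identical processed pseudogenes, and reads were listed under some of them. Whether those reads came from Fdps transcripts was not tested. Gm3571, at 98.9% identity over 1062 bases, was listed at 5.80 and 4.08 FPKM in wild-type and at 7.73 and 12.4 in knockout pools. These values came from 104, 68, 146 and 225 reads, against 102, 97, 292 and 256 for Fdps, whose listed length is greater. Gm5873, at 96.7% identity, was at 1.83 and 1.07 against 2.53 and 3.89 FPKM. From low to high, both had the order wild-type replicate 2, wild-type replicate 1, knockout replicate 1, knockout replicate 2. This order held for 11 of the 19 enzymes, Fdps not among them, and for 7.29% of all genes tested. Of the reads summed over Fdps and its copies, Fdps held 42.7% and 53.0% in wild-type and 60.1% and 46.4% in knockout pools. The summed level was 3.36 and 2.77 FPKM in wild-type and 6.48 and 7.65 in knockout pools, and knockout replicate 2 was then the highest and wild-type replicate 2 the lowest. The log2 fold change of the sum was 1.09 (limma adjusted p = 0.0411), a setting chosen after the values were seen. The Fdps call was lost without any 1 of the 4 libraries, where calls over all genes also became fewer. Its log2 fold change ran from 1.05 to 1.17 in these fits.

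Ggps1, which extends farnesyl to geranylgeranyl diphosphate for protein prenylation, was the single enzyme on the other side. It was at 2.58 and 2.84 FPKM in wild-type and at 2.13 and 1.95 in knockout pools, with a log2 fold change of -0.34 (interval -0.71 to 0.03, limma adjusted p = 0.210). The difference did not pass, although the groups did not overlap.

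**Figure D2:**
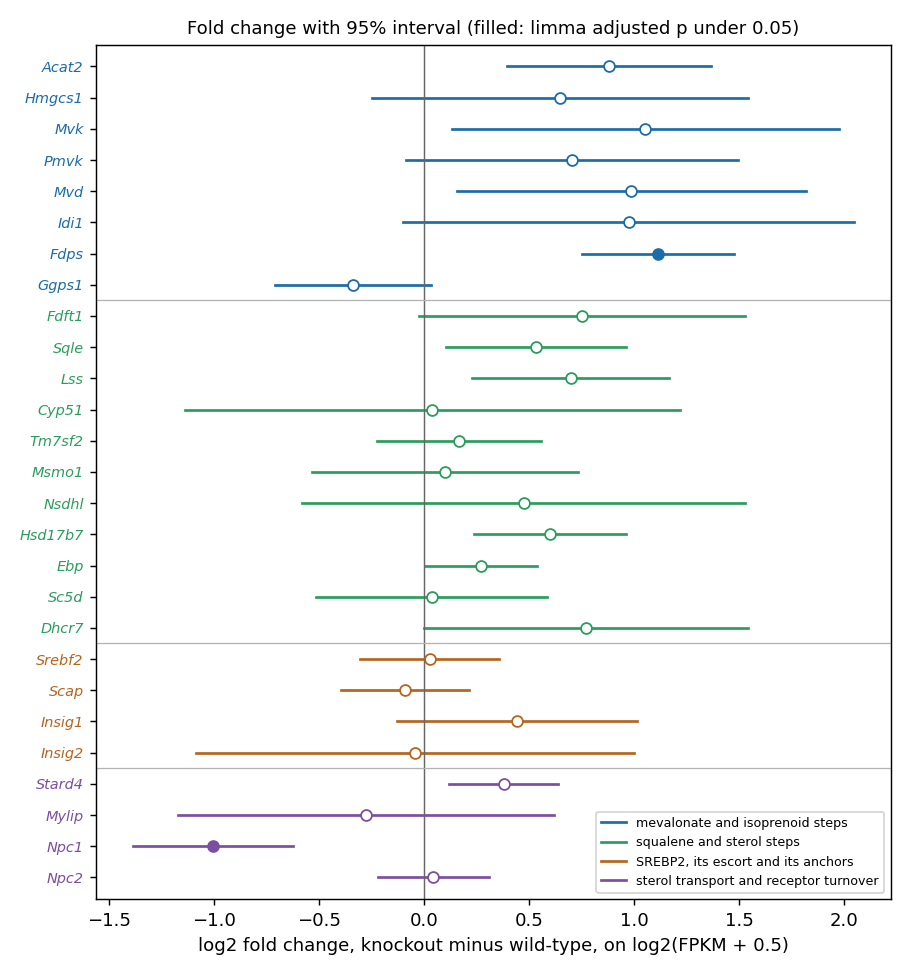
log2 fold change of each gene (knockout minus wild-type, on log2(FPKM + 0.5)) with its 95% interval from limma, coloured by role. Filled points passed at an adjusted p under 0.05: Fdps at 1.11 and Npc1 at -1.01. All 11 squalene and sterol steps lie above 0 without passing.

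The sterol-forming steps start with Fdft1, the squalene synthase, which was at 16.9 and 10.8 FPKM in wild-type and 18.9 and 28.3 in knockout pools. Its span overlaps 774 bases of Ctsb on the other strand, at 96.8 to 115 FPKM, and strand marking is not stated, so some of its reads may belong to Ctsb. Sqle, the squalene epoxidase that commits carbon to sterols, was at 17.8 and 15.7 against 21.6 and 27.7 FPKM (log2 fold change 0.53, interval 0.11 to 0.96, limma adjusted p = 0.128). Lss, the lanosterol synthase, was at 6.37 and 6.18 against 8.92 and 12.3 FPKM (log2 fold change 0.70, interval 0.23 to 1.17, adjusted p = 0.0967 by limma). In these 3 genes both knockout pools were above both wild-type pools, and none passed the test.

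Of the genes that demethylate lanosterol, Cyp51, Msmo1 and Nsdhl had groups that overlapped. Cyp51, the lanosterol 14-alpha demethylase, was at 47.3 and 26.4 FPKM in wild-type and at 25.3 and 52.0 in knockout pools, so replicate 1 of one genotype paired in level with replicate 2 of the other. Its log2 fold change of 0.04 had an interval from -1.14 to 1.22, which leaves a doubling in either direction inside it. Msmo1, the C4 methylsterol oxidase, showed the same arrangement at 25.5 and 21.2 against 20.1 and 31.0 FPKM. Nsdhl, which removes the oxidised C4 methyl group, was at 11.8 and 6.58 against 9.10 and 16.97 FPKM, with knockout replicate 1 between the wild-type pools. Without knockout replicate 2, the log2 fold changes of Cyp51 and Msmo1 turned to -0.47 and -0.21.

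Hsd17b7, the 3-ketosteroid reductase of the same C4 step, had tighter pools, at 14.1 and 12.2 FPKM in wild-type and 18.7 and 21.8 in knockout (log2 fold change 0.60, interval 0.24 to 0.96, limma adjusted p = 0.0810). Ebp, the sterol delta8-delta7 isomerase, was at 41.1 and 40.1 against 48.7 and 49.7 FPKM. This was a small and even difference, 0.27 on the log2 scale (interval 0.0056 to 0.54, limma adjusted p = 0.177). Tm7sf2, a sterol delta14 reductase, was at 15.0 and 19.1 against 18.8 and 19.3 FPKM, and its groups overlapped.

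The closing reductions and desaturation were split. Sc5d, the lathosterol desaturase, was at 45.9 and 53.4 FPKM in wild-type and 42.5 and 60.6 in knockout pools, with a log2 fold change of 0.04 (interval -0.51 to 0.58). Dhcr7, the 7-dehydrocholesterol reductase, was at 8.44 and 6.23 against 9.80 and 16.5 FPKM (log2 fold change 0.77, interval 0.0014 to 1.54, limma adjusted p = 0.184). The knockout pools of Sc5d spanned both wild-type pools, while those of Dhcr7 lay above them. Of the 11 squalene and sterol steps 0 passed by limma and 5 had an unadjusted p under 0.05, against 27.1% of all genes. Their median log2 fold change was 0.47, and over the 8 mevalonate and isoprenoid steps 0.93.

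In 8 of the 19 enzymes the larger log2 gap between pools of a genotype exceeded the log2 fold change. This was so for 6041 of all 11900 genes tested, so it is not particular to the enzymes. Knockout replicate 2 was the highest of the 4 libraries for 17 of the 19 enzymes, against 21.6% of all genes tested. Wild-type replicate 2 was the lowest for 13 of the 19, against 24.1% of all genes. Both held at once for 13 of the 19, against 10.5% of all genes. The median ratio of knockout replicate 2 to replicate 1 was 1.42 over the enzymes and 1.01 over all genes, and the median ratio of wild-type replicate 1 to replicate 2 was 1.20 and 0.99. The median ratio of the knockout mean to the wild-type mean was 1.62 over the enzymes. Idi1 and Cyp51 differed most between the knockout pools, at 2.12-fold and 2.06-fold. Summed over the 19 enzymes, the level was 370 and 302 FPKM in wild-type and 379 and 560 in knockout pools. In this sum, weighted to the genes of highest level, knockout replicate 1 stood near wild-type replicate 1. Gene by gene, both knockout pools lay above both wild-type pools in 12 of the 19, where 31.6% of all genes did so. Knockout replicate 2 had the lowest hepatocyte marker sum of the 4 libraries, and the part of this in its enzyme levels was not tested. These shares describe a pattern seen in the values and carry no test.

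**Figure D3:**
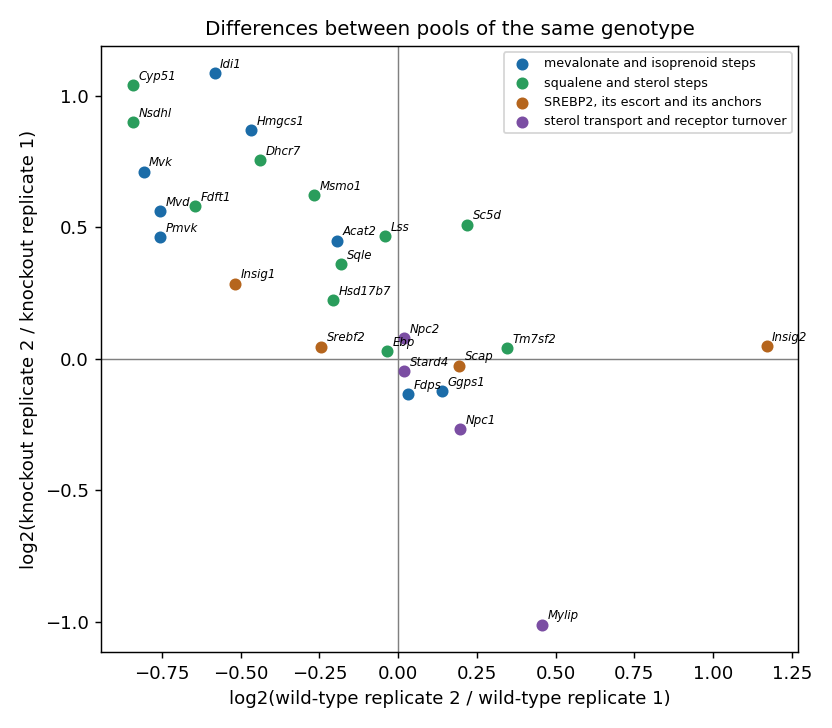
log2 ratio of replicate 2 to replicate 1 within wild-type (horizontal) and within knockout (vertical), 1 point per gene, coloured by role. Most enzymes lie in the upper left, lower in wild-type replicate 2 and higher in knockout replicate 2, while Fdps, Ebp, Npc2 and Stard4 lie near the origin and Insig2 and Mylip lie apart.

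Leaving out 1 library moved most enzymes one way, with exceptions. Without knockout replicate 2, 17 of the 19 had a lower log2 fold change and Fdps and Ggps1 a higher one, and without knockout replicate 1 the split was the reverse. Without wild-type replicate 2, 15 were lower and Fdps, Ggps1, Sc5d and Tm7sf2 were higher, and without wild-type replicate 1 this too was reversed. These splits restate which pool of a genotype was higher, because each group had 2 pools, and the reversals follow by construction. Without knockout replicate 2 the median log2 fold change of the 19 enzymes was 0.41 and 15 were above 0. Without wild-type replicate 2 it was 0.44 with 16 above 0. Without wild-type replicate 1 it was 0.87 with 16 above 0, and without knockout replicate 1 it was 0.92 with 18 above 0. The log2 fold change ran from 0.22 to 1.08 for Hmgcs1, from 0.45 to 1.51 for Idi1 and from 0.34 to 1.07 for Pmvk. It ran from 0.68 to 1.43 for Mvk, from 0.63 to 1.35 for Mvd, from 0.41 to 1.14 for Dhcr7 and from 0.043 to 0.91 for Nsdhl. The range was narrower for Ebp, from 0.25 to 0.29. The calls of Fdps and Npc1 were lost in each of these 4 fits, and no other gene of the 27 gained one. Calls over all genes also became fewer in each, so the loss is not particular to the pathway. In each the lone pool of a genotype was assumed to vary like the other genotype.

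**Figure D4:**
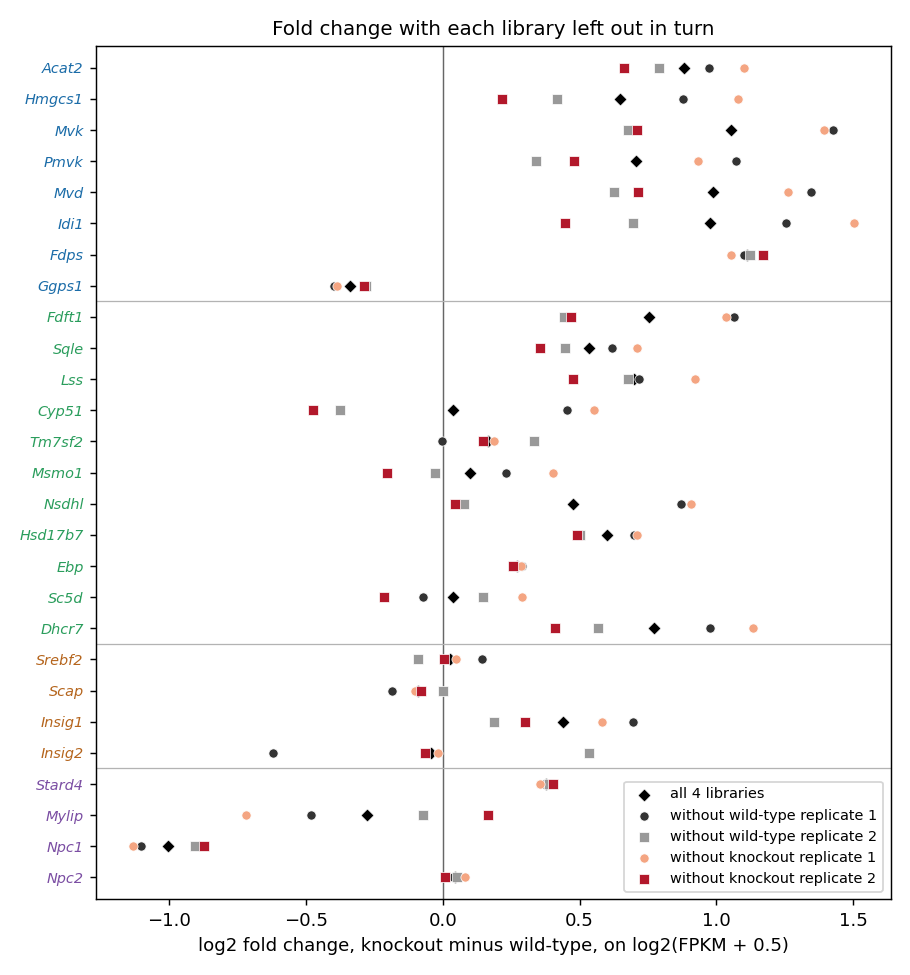
log2 fold change of each gene with all 4 libraries (black diamonds) and with each left out in turn. Fdps, Ebp, Hsd17b7, Stard4 and Npc1, whose groups do not overlap, keep their side of 0 in all 4 fits by construction. Cyp51 and Msmo1 change side without wild-type replicate 2 or knockout replicate 2.

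Of the 4 regulators, 0 passed the limma test and 0 had an unadjusted p under 0.05. Srebf2 itself was at 13.7 and 11.5 FPKM in wild-type and at 12.6 and 13.0 in knockout pools, with a log2 fold change of 0.03 and a 95% interval from -0.30 to 0.36. Its intronic microRNA row, Mir33, was listed at 0 in all libraries, which were selected for poly(A) RNA. Scap, the escort, was at 12.9 and 14.8 against 13.0 and 12.8 FPKM (log2 fold change -0.09, interval -0.40 to 0.21). For both genes the interval leaves out a doubling or a halving of the transcript, and it says nothing of protein cleavage.

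The 2 INSIG anchors differed from each other in how pools varied. Insig1, itself a target of SREBP2, was at 41.7 and 29.1 FPKM in wild-type and at 43.0 and 52.4 in knockout pools. It was lowest in wild-type replicate 2 and highest in knockout replicate 2, as were 13 of the 19 enzymes, with groups that did not overlap and a log2 fold change of 0.44 (interval -0.13 to 1.01, limma adjusted p = 0.266). Insig2, which in liver has a transcript that fasting raises and insulin lowers, was at 30.9 and 69.5 FPKM in wild-type and at 44.3 and 45.8 in knockout pools. Here wild-type replicate 2 was the highest library and wild-type replicate 1 the lowest, and the knockout pools lay between. Its log2 fold change of -0.04 had an interval from -1.09 to 1.00 and turned to 0.54 without wild-type replicate 2.

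Npc1, the lysosomal membrane protein that exports cholesterol, was the gene that fell. It was at 33.1 and 38.0 FPKM in wild-type and at 19.1 and 15.9 in knockout pools, from 6005, 6404, 3652 and 2919 reads. The means were 35.5 ± 3.44 and 17.5 ± 2.28 FPKM (SD, n = 2 pools), and the gap between genotypes was larger than that within either. On the log2 scale the difference was -1.01 (SE 0.14, interval -1.39 to -0.62, limma adjusted p = 0.0426). The call was lost without any 1 of the 4 libraries, where calls over all genes also became fewer, with log2 fold changes from -1.13 to -0.88. It was also lost without the mean-variance trend (adjusted p = 0.0607, limma). The gene lies on GRCm38 chromosome 18 (12189693 to 12236400, minus strand, ENSMUSG00000024413), and its end overlaps 305 bases of 3110002H16Rik on the other strand, which was listed at 5.19 to 6.24 FPKM.

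Npc2, the soluble lysosomal partner that hands cholesterol to NPC1, was level. It was at 14.4 and 14.5 FPKM in wild-type and 14.5 and 15.3 in knockout pools, with a log2 fold change of 0.04 and an interval from -0.22 to 0.31. Stard4, a cytosolic sterol carrier, was at 11.4 and 11.5 against 15.3 and 14.8 FPKM, a small difference with tight pools (log2 fold change 0.38, SE 0.10, interval 0.12 to 0.64, not past the threshold). Mylip, a ubiquitin ligase that removes lipoprotein receptors and is induced by oxysterols, was at 3.77 and 5.17 against 5.01 and 2.49 FPKM. Its lowest value was in knockout replicate 2, and its groups overlapped.

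Neighbouring pathways were taken from 6 lists chosen for their link to sterols. Over all genes tested, 1.60% rose and 3.14% fell by the limma rule used for these lists. The sterol-export list of the oxysterol receptors and their transporters had 2 of 6 members that rose, 0 that fell and a median log2 fold change of 0.08. These were Abcg5 and Abcg8, which form the canalicular sterol exporter. Abcg5 was at 22.8 and 22.7 FPKM in wild-type and 50.3 and 49.4 in knockout pools (log2 fold change 1.11, limma adjusted p = 0.0258). Abcg8 was at 16.7 and 16.6 against 27.5 and 30.2 FPKM (log2 fold change 0.77, limma adjusted p = 0.0408). Both had pools that nearly coincided within a genotype, unlike most of the enzymes.

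Of 13 tested genes of sterol esterification and movement, 0 rose and 1 fell (1.60% and 3.14% of all genes tested), with a median of -0.12. The one that fell was Soat2, the acyltransferase that makes cholesteryl esters in hepatocytes, at 61.4 and 52.4 FPKM in wild-type and 28.2 and 27.5 in knockout pools (log2 fold change -1.01, limma adjusted p = 0.0350). Scarb1, the receptor for high-density lipoprotein, was at 29.5 and 27.6 against 18.5 and 19.9 FPKM and did not pass (limma adjusted p = 0.0611). Gramd1b and Soat1 were under the filter.

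Of 9 tested enzymes that turn cholesterol into bile acids, 3 rose and 1 fell, with a median of 1.08. Over all genes tested the shares were 1.60% and 3.14%. Cyp7a1, the rate-limiting enzyme, rose from 2.22 and 2.77 to 35.8 and 17.5 FPKM. Its level was higher in knockout replicate 1 than in replicate 2, the reverse of 17 of the 19 synthesis enzymes, all but Fdps and Ggps1. Knockout replicate 2 was above replicate 1 in 6088 of all 11900 genes tested, so the order of 1 gene carries little weight. Cyp7b1 and Akr1d1 also rose, with log2 fold changes of 2.34 and 1.63, and Cyp8b1 fell with -0.91 (limma adjusted p between 0.0258 and 0.0323 for the 4 genes).

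The fatty acid synthesis list around SREBP1 had 1 of 13 members that rose, 0 that fell and a median of 0.63. Of all genes tested, 1.60% rose and 3.14% fell. Acacb, an acetyl-CoA carboxylase, rose from 6.28 and 4.99 to 15.4 and 15.0 FPKM (log2 fold change 1.36, limma adjusted p = 0.0302), and Elovl6, a fatty acid elongase, had an adjusted p of 0.0574 by limma. Srebf1, the paralog of Srebf2, was at 10.8 and 10.9 against 8.78 and 13.9 FPKM. Knockout replicate 2 was the highest library for 7 of these 13 genes, but together with wild-type replicate 2 as the lowest for 0 of 13. Whether the fatty acid and cholesterol lists differ in this was not tested.

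The machinery around SREBP2 held no gene that passed. Of 14 genes of SREBP cleavage, vesicle transport and sterol-regulated degradation, 0 passed in either direction by limma, with 2 at an unadjusted p under 0.05, where 27.1% of all genes were, and a median of -0.03. The smallest p-values were those of the coat proteins Sec24b and Sec23a, with log2 fold changes of -0.42 and 0.33 and limma adjusted p of 0.0980 and 0.150. Of 14 genes of the prenylation, dolichol and ubiquinone branches, 0 passed by limma, with 3 at an unadjusted p under 0.05 and a median of 0.18. By the same limma threshold on the unadjusted p, the counts were 2 of 6 for sterol export, 6 of 13 for esterification and movement, 6 of 9 for bile acid steps and 8 of 13 for fatty acid synthesis. Coq2, of ubiquinone synthesis, had a log2 fold change of 0.36 and Rabggtb, a subunit of a Rab prenyltransferase, of -0.38, with limma adjusted p of 0.114 and 0.161.

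Rows that overlap or resemble the 27 genes limit some values. The spans of 13 of them overlapped another listed gene, and in 5 cases one that averaged at least 1 FPKM (Fdps, Ggps1, Fdft1, Cyp51 and Npc1). Tm7sf2 shares 9356 bases with Vps51 on the same strand, which was listed at 0.268 to 0.579 FPKM. Rows that overlap Fdps and Mvd for 7512 and 9822 bases, Gm43738 and Gm20388, were listed at 0 in all libraries. Gm43738 shares 929 aligned bases at 100% identity with Fdps, and how reads in shared bases were counted is not stated. Gm22935, a small nuclear RNA row, overlaps Fdps for 104 bases on the same strand. It was at 4.55 and 1.22 FPKM in wild-type and 10.8 and 10.7 in knockout pools, and its part in the Fdps value was not tested.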

How the data were processed

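Poly(A)-selected liver RNA of 2 wild-type and 2 knockout pools was sequenced, per the labels' protocols. The authors deposited FPKM for 54149 genes with gene lengths and coordinates, per the file headers. The submitters' processing notes name HISAT2 2.0.5 and the builds mm10 and GRCm38.p6; no source names the counting program. FPKM times length gave whole reads for 100.00% of values above 0 (tolerance 0.01), and 0 sample columns were left out. Each library was matched to its column by genotype and replicate number.

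The limma 3.58.1 test (R 4.3.3) was run on log2(FPKM + 0.5) with a mean-variance trend, for the 11900 genes averaging 1 FPKM or more. It was two-sided and adjusted by Benjamini-Hochberg over all of them, and a fold change on this scale understates that of low genes. The genes, lists, test and alternatives were chosen with earlier results of these data known. The named genes were all 27, and from each related list those that passed, or the 2 with the smallest p where fewer than 2 passed. The test was tried on simulated reads. Transcripts were compared with GENCODE M21 by megablast (at least 300 bases at 90% identity), and copies aligned over at least 500 bases outside the gene were summed with it. Plots used matplotlib 3.10.9 (Python 3.11.15).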

Additional observations from a re-analysis of the deposited data

How the results depend on the processing

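The test calls rest on few pools, and some signs depend on 1 library. Of the 27 genes, 19 kept the sign of their log2 fold change in all 4 fits that leave out a library, and 8 changed it in at least 1. Groups that do not overlap fix the sign in these fits, as in 14 of the 27 with knockout higher and 2 with knockout lower. Over all genes tested, 31.6% and 29.9% had such groups. The share of all genes that kept their sign was not counted. Most other alternatives could not test a sign. The filters, the fit without the trend, the protein-coding subset and both pairings leave the log2 fold change of a tested gene as it was. The count of the 27 that passed was 2 with all 4 libraries, 0 without a filter on low values (10 at an unadjusted p under 0.05), 1 with a mean of at least 5 FPKM (where Fdps, Ggps1 and Mylip were not tested), 1 without the trend and 0 with the replicate block (9 at an unadjusted p under 0.05). With voom on recovered reads it was 2, and 3 among protein-coding genes alone, where Acat2 joined. The replicate numbers share no stated source, and deviations of same-numbered pools correlated at -0.14 over all genes and -0.707 over the 27. The crossed pairing, chosen after seeing the data, called 5 of the 27 and 552 of all 11900 genes tested. It pairs the pools the way these correlations run, so its count gives no support. Over all genes 564 passed, against 0 without the filter (4388 at an unadjusted p under 0.05), 280 without the trend, 901 with voom, 1014 among protein-coding genes alone and 310 with the replicate block. Leaving out a library gave 0 to 253 calls over all genes (2041 to 2680 at an unadjusted p under 0.05) and 0 to 0 of the 27. The cause of these shifts was not tested, beyond the smaller number of libraries.

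Insig2 turned to 0.021 when scaled to listed reads and 0.023 with voom. Over the 4 fits that leave out a library, log2 fold changes ran from -0.47 to 0.55 for Cyp51, -0.0021 to 0.33 for Tm7sf2, -0.21 to 0.40 for Msmo1, -0.22 to 0.29 for Sc5d, -0.090 to 0.14 for Srebf2, -0.19 to 0.0022 for Scap, -0.62 to 0.54 for Insig2 and -0.72 to 0.16 for Mylip.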
